A study of Mus musculus with 45 samples.

Results

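Natural killer (NK) cell receptors were followed through 9 of the 47729 mouse genes measured in CT26 tumours: Ncr1, Klrb1c, Klrk1, Klrd1, Klrc1, Klrg1, Klre1, Klra3 and Klra8. The genes were chosen by name, and each was found as 1 row in both expression tables. CT26 is an undifferentiated colon carcinoma line of BALB/c mice, grown here under the skin of HuGEMM BALB/c mice whose PD-1 and TIGIT genes carry human knock-in sequence; every group, vehicle included, had this genotype. Experiment T2106 held 18 tumours in 6 groups of 3, given serplulimab, HLX53, pembrolizumab + tiragolumab, serplulimab with HLX53 at 5 mg/kg, the same pair with 10 mg/kg of HLX53, or saline vehicle. Experiment T2215 held 27 tumours in 9 groups of 3, given serplulimab, pembrolizumab, HLX53, tiragolumab, each of the 4 pairs of a PD-1 and a TIGIT antibody, or vehicle. Serplulimab and pembrolizumab are PD-1 antibodies and HLX53 and tiragolumab are directed at TIGIT, and all were given at 10 mg/kg except in the 5 mg/kg group. Dosing was into the peritoneum and began on day 8, at tumour volumes of 90 to 100 mm3. The age of the mice is not stated in the labels.

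NK cells weigh activating against inhibitory signals from receptors encoded without rearrangement. Most of the genes described here lie in the NK gene complex and encode lectin-like receptors. Ncr1 (NKp46) and Klrk1 (NKG2D) activate, the first through adaptors with an activation motif and the second through Hcst (DAP10) and Tyrobp (DAP12). Klrd1 (CD94) pairs with Klrc1 (NKG2A) in an inhibitory receptor for the MHC class I molecule Qa-1b, and Klrg1 is an inhibitory receptor for cadherins. Klra3 (Ly49C) and Klra8 (Ly49H) belong to the Ly49 family, whose gene content differs between mouse strains, and Klra8 is known from C57BL/6 and absent from BALB/c. Klrb1c carries the NK1.1 antigen in C57BL/6, Klre1 encodes a receptor that pairs with other lectin-like chains, and Klrk1, Klrd1, Klrc1 and Klrg1 are also made by activated CD8 T cells.

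In the GRCm38 annotation Ncr1 lies on chromosome 7 at chr7:4337724-4345164, and the other 8 genes lie on chromosome 6, from Klrg1 at chr6:122270596-122282882 to Klra3 at chr6:130323289-130337574. All 9 are protein-coding. Klra8 and Klra3 are shown because one was close to 0 in these tumours and the other was measured, although the reference coding sequences of both are 798 bases long and 90.5% identical (722 bases). The stretch printed is bases 53 to 202 of each coding sequence, counted from 1 at the A of the start codon, where the 150 bases hold 39 differences, and capitals mark the bases that differ.
Klra8: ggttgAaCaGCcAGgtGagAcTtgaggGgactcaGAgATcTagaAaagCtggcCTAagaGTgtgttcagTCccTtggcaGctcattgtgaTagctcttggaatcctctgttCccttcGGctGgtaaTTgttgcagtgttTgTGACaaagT
Klra3: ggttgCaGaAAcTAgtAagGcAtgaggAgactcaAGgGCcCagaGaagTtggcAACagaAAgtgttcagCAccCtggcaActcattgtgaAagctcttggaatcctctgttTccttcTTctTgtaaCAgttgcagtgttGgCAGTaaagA
The longest run of identical bases between the coding sequences was 55. Of the distinct 50-base windows of the transcripts, 33.1% of Klra8's and 20.7% of Klra3's also occur in another gene, so the authors' counting could split such reads. The same share was 38.6% for Klrc1 (mostly shared with Klrc2) and 17.0% for Klrb1c, which also shares exonic bases on the same strand with Gm44511. It was 0.28% for Klre1 and 0.0% for Ncr1, Klrk1, Klrd1 and Klrg1. Levels of Klrc1, Klrb1c and the Klra genes are uncertain for this reason. The shares do not measure by how much, since the reads were 150 bases long and the windows 50. The genes counted include Klra8, which is absent from BALB/c, so their Ly49 content was not that of these mice. Which BALB/c genes gave the reads counted as Klra3, and how strain differences bear on Klrb1c, was not tested.

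Promoters are shown for Ncr1, Klrk1 and Klrc1, to set the promoters of an NK receptor, an activating receptor also made by T cells and an inhibitory chain side by side. RefSeq (GRCm38.p6) held a promoter for 7 of the 9 genes. For Ncr1, Klre1 and Klra8 it listed 2 starts, and only the first was used. The 250 bases before each start are printed on the gene's strand, at chr7:4337465-4337714 for Ncr1, chr6:129623865-129624114 for Klrk1 and chr6:129678974-129679223 for Klrc1, with capitals for matches to the RUNX motif TGTGGT, the T-box motif TCACAC or their other strands, ACCACA and GTGTGA.
Ncr1: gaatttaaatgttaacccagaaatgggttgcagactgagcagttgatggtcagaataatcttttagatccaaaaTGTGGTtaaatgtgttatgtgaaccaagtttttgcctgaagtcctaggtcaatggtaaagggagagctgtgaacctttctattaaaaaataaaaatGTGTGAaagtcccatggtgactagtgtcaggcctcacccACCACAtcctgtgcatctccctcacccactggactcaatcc
Klrk1: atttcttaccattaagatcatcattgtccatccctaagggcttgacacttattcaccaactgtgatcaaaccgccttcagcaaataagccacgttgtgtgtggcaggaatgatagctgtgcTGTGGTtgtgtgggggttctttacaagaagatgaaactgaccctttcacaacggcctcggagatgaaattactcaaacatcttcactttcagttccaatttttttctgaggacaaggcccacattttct
Klrc1: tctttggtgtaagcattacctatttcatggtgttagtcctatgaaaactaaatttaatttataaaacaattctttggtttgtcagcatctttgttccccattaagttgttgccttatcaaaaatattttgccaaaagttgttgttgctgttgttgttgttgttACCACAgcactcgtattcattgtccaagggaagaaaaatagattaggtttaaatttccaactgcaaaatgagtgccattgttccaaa
The RUNX letters occurred in 5 of the 7 promoters (Ncr1 at 2 places, Klrb1c, Klrk1, Klrc1 and Klre1) and in 14% of all 32851 promoters of that length. The T-box letters occurred in 1 of the 7, Ncr1, and in 12.3% of all promoters. The matches in the printed promoters do not overlap, and a match is only a description of these letters.

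Values are FPKM, fragments scaled by gene length and library size, so levels can be set against each other across genes. In a library the values summed to between 678636 and 911201 and 12918 to 14448 genes reached 0.5 FPKM; the read depth is unknown. Some tumours stood apart in markers of host tissue, given here as scores, the mean log2(FPKM + 0.5) over a marker list. The adipocyte score was 5.85 to 6.11 in the 3 tumours given serplulimab + HLX53 at 10 mg/kg, 0.71 to 0.77 with pembrolizumab + tiragolumab and 0.95 to 3.85 in vehicle. The skeletal muscle score reached 3.55 in replicate 2 of serplulimab + HLX53 at 5 mg/kg, and in T2215 it reached 11.41 in serplulimab replicate 1, 5.04 in pembrolizumab + tiragolumab replicate 3 and 3.15 in serplulimab + tiragolumab replicate 2. Of the colon carcinoma and epithelium markers, Vil1 stayed below 0.5 FPKM in every tumour and Cdx2 passed it in 1. The other markers of that list reached it in more tumours. Epcam did so in 8 of 18 tumours of T2106 and 18 of 27 of T2215, and Krt18 in all of both. In whole tumours, fewer cells of a type and less RNA per cell cannot be told apart.

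Klra8 was the 1 receptor of the 9 that lay near 0 throughout. Klra8 lay at or below 1.81e-06 FPKM in all 18 tumours of T2106, and in T2215 its highest value was 0.02 FPKM, in serplulimab replicate 3. Its relatives Klra4 and Klra6 were as low, at most 1.36e-06 and 1.88e-06 FPKM in T2106, while Klra2 had a median of 11.4 FPKM there and 9.75 FPKM in T2215. In T2106 the median FPKM was 10.2 for Klrk1, 8.24 for Klrd1, 6.87 for Klrg1, 6.75 for Klrc1, 5.59 for Ncr1, 1.84 for Klra3, 1.74 for Klre1 and 0.363 for Klrb1c. In T2215 it was 7.64 for Klrk1, 4.29 for Klrd1, 3.48 for Ncr1, 2.9 for Klrg1, 2.88 for Klrc1, 1.81 for Klra3, 0.735 for Klre1 and 0.276 for Klrb1c. The filter of 0.5 FPKM in at least 3 tumours kept 8 genes in T2106 (not Klra8) and 7 in T2215 (not Klra8 or Klrb1c). Klrb1c reached it in 6 of 18 tumours of T2106, 3 of them given serplulimab + HLX53 at 10 mg/kg, and in 1 of 27 of T2215.

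Klrg1, the inhibitory receptor for cadherins, was higher in every treated tumour of T2106 than in any vehicle tumour. It measured 6.50, 7.52 and 7.25 FPKM with serplulimab, 4.27, 4.57 and 16.6 with HLX53, 8.40, 7.23 and 8.12 with pembrolizumab + tiragolumab, 9.84, 4.04 and 4.73 with the 5 mg/kg pair, 11.7, 4.39 and 9.78 with the 10 mg/kg pair, and 2.63, 1.81 and 2.34 in vehicle. The 15 treated tumours (median 7.25 FPKM) and the 3 vehicle tumours (median 2.34 FPKM) did not overlap, which was so in the higher direction for 0.723% of the 15070 genes tested. This description was chosen after the values were seen. No other receptor kept the groups apart in this way: for Ncr1, 9 of 15 treated tumours were above all 3 vehicle tumours, and for Klrc1, 7 were above and 3 below. In the order of group means, the step over vehicle for Klrg1 was the only one between neighbouring groups without overlap, among the 8 receptors tested in T2106.

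**Figure D1:**
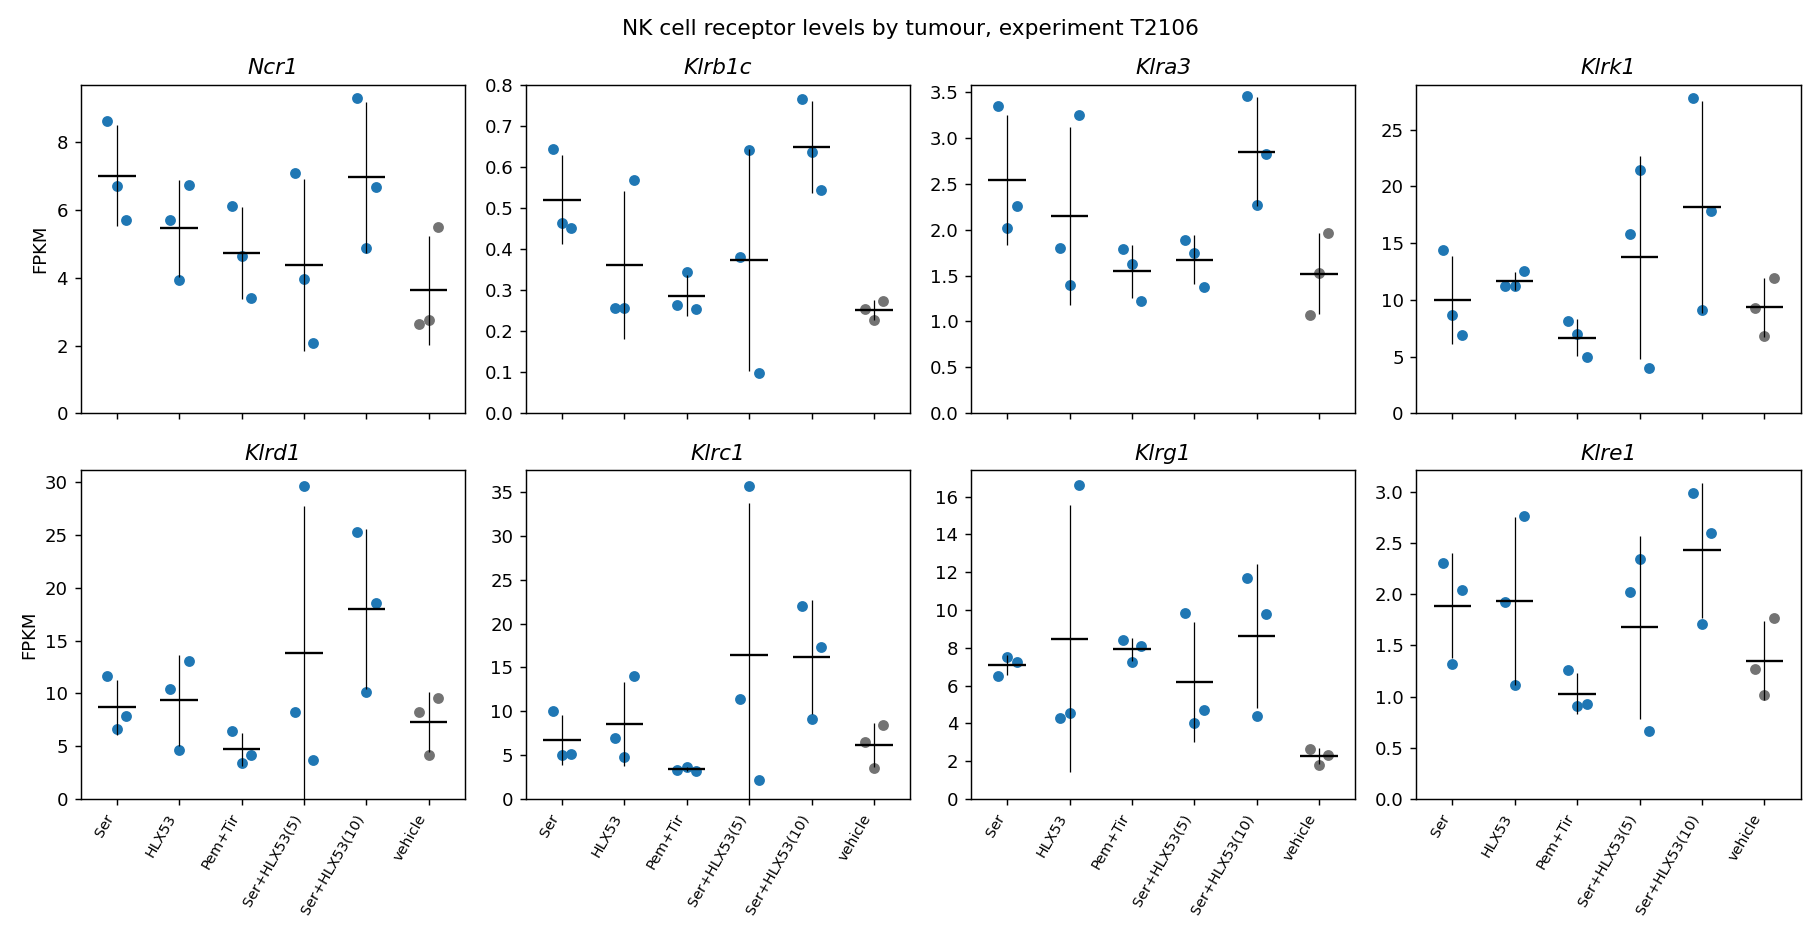
FPKM of 8 NK cell receptor genes by treatment group in T2106 (Ser, serplulimab; Pem, pembrolizumab; Tir, tiragolumab; numbers in brackets, HLX53 in mg/kg). Points are tumours, 3 a group, horizontal lines are means and vertical lines 1 SD, cut at 0; the 3 vehicle tumours for Klrg1 lie between 1.81 and 2.63 FPKM, under every treated tumour.

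Of the 5 treated groups of T2106, 1 passed the test against vehicle for any of the receptors. With serplulimab + HLX53 at 10 mg/kg, 3 of 8 rose, and all 8 had positive log2 changes (median 0.85, against -0.04 over all genes tested). The background was high: limma called 44.0% of genes in this comparison, and 23.4% of genes were called higher. A share of 3 in 8 is read against that figure, and it is not a result about these receptors. Klrg1 averaged 8.62 ± 3.79 FPKM with the combination and 2.26 ± 0.415 in vehicle (SD, n = 3 each), a log2 change of 1.63 ± 0.44 (SE; limma, Benjamini-Hochberg adjusted p = 0.0153). Klra3, an inhibitory Ly49 receptor for MHC class I, measured 3.45, 2.26 and 2.83 FPKM with the combination, against 1.07, 1.53 and 1.96 in vehicle. The groups did not overlap, and the log2 change was 0.74 ± 0.26 (limma adjusted p = 0.0335). Klrb1c measured 0.768, 0.637 and 0.545 FPKM with the combination, against 0.256, 0.227 and 0.274 in vehicle. Again the groups did not overlap, at levels near the filter, and the log2 change was 0.61 ± 0.21 (limma adjusted p = 0.0344).

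The other 5 did not pass. Ncr1 measured 9.30, 4.87 and 6.68 FPKM with serplulimab + HLX53 at 10 mg/kg, against 2.63, 2.76 and 5.48 in vehicle, and the groups overlapped (0.88 ± 0.37, limma adjusted p = 0.0659). Klrd1 and Klrc1, the chains of the CD94/NKG2A receptor, had log2 changes of 1.23 ± 0.59 and 1.31 ± 0.69 (limma adjusted p = 0.0982 and 0.126). For both, the 3 treated tumours were above the 3 vehicle tumours: Klrc1 stood at 22, 9.18 and 17.3 FPKM, against 6.53, 3.52 and 8.43. Groups without overlap in the higher direction were found for 5 of 8 receptors and for 31.6% of genes. Klrk1 and Klre1 had log2 changes of 0.83 ± 0.50 and 0.66 ± 0.33 (limma adjusted p = 0.176 and 0.112).

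All 3 genes missed the threshold when replicate 1 or replicate 3 of the combination was left out and with no filter on low values, while the changes stayed near their size. In these settings, in that order, Klrg1 had 1.37, 1.5 and 1.63 (limma adjusted p = 0.076, 0.0601 and 0.0511) and Klra3 had 0.61, 0.73 and 0.74 (limma adjusted p = 0.133, 0.0845 and 0.0908). Klrb1c missed the threshold whichever single tumour of the combination or vehicle was left out, at 0.53 to 0.67 (limma adjusted p = 0.0539 to 0.125). Ncr1 passed without vehicle replicate 3 or replicate 2 of the combination (limma adjusted p = 0.0432 and 0.0422). Without vehicle replicate 1 or 2, 1 call, Klrg1, was left, and without replicate 2 of serplulimab + HLX53 at 5 mg/kg, the muscle-rich tumour, there were 5. The adipocyte list moved with the result: 10 of 10 of its genes rose, their summed level was 2020 to 2260 FPKM with the combination and 78.7 to 450 FPKM in vehicle, and 4 of 5 keratinocyte genes rose. With the adipocyte score as a covariate 0 of 8 receptors and 3 genes in all were called, and the score and the group cannot be told apart. The change of Klrg1 was then 1.88 ± 0.65, that of Klra3 0.46 ± 0.36 and that of Klrb1c 0.12 ± 0.25 (limma adjusted p = 0.42, 0.794 and 0.941). Of the T cell list, 3 of 12 rose (median log2 change 1.34; summed level 92.7 to 243 FPKM against 47.4 to 69.1), and 0 of 8 receptors were called with the T cell score as a covariate, where Klrg1 had 1.41 ± 0.50 (limma adjusted p = 0.0751). Of the neutrophil and B and plasma cell lists, 6 of 6 and 7 of 7 genes rose. Their part in the result was not tested.

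In the other 4 treated groups, limma called 0 of 8 receptors against vehicle. Genes called came to 0.0% with serplulimab, 0.00664% with HLX53, 0.0% with pembrolizumab + tiragolumab and 1.02% with serplulimab + HLX53 at 5 mg/kg. At an unadjusted p under 0.05 there were 3 receptors with serplulimab (Ncr1, Klrg1 and Klra3) and 1, Klrg1, in each of the others. Of the 15070 genes, 1280 passed that threshold with serplulimab, 582 with HLX53, 774 with pembrolizumab + tiragolumab and 4331 with the 5 mg/kg pair. Klrg1's log2 change was 1.47, 1.45, 1.62 and 1.19 in these groups in that order, each ± 0.44, with limma adjusted p of 0.471, 1, 0.858 and 0.117. Klrg1 had no overlap with vehicle in any of the 4, and Ncr1, Klrb1c and Klra3 had none with serplulimab; genes without overlap in the higher direction came to 6.24% with serplulimab, 5.33% with HLX53, 7.41% with pembrolizumab + tiragolumab and 5.84% with the 5 mg/kg pair. The comparisons share their vehicle tumours. Without replicate 3 of the 5 mg/kg group, 2 receptors were called in it.

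Serplulimab + HLX53 at 10 mg/kg was also set against the other pair, pembrolizumab + tiragolumab. With the first pair, 4 of 8 receptors were higher. Limma called 42.6% of genes here, and 25.8% of genes were called higher, so 4 in 8 is again read against a high background. The 4 were Klrd1, Klrc1, Klre1 and Klra3, and Klrg1 was not among them. Klrc1 measured 22, 9.18 and 17.3 FPKM with serplulimab + HLX53, against 3.33, 3.67 and 3.22 with pembrolizumab + tiragolumab. The lowest tumour of the first group was above the highest of the second, and the log2 difference was 2.01 ± 0.69 (limma adjusted p = 0.0337). Klrc2, the activating relative that shares sequence with Klrc1, was higher too (1.55 ± 0.53, limma adjusted p = 0.0336). Klrd1 measured 25.3, 10.1 and 18.6 FPKM, against 6.43, 3.44 and 4.22, without overlap (1.78 ± 0.59, limma adjusted p = 0.0293). Klre1 and Klra3 had differences of 0.92 ± 0.33 and 0.71 ± 0.26 (limma adjusted p = 0.0396 for both). For Klrk1 and Klrb1c the groups did not overlap either, at 1.27 ± 0.50 and 0.54 ± 0.21, but the limma adjusted p was 0.0522 and 0.0523. In all, 6 of 8 receptors and 34.4% of genes had groups without overlap in the higher direction.

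**Figure D2:**
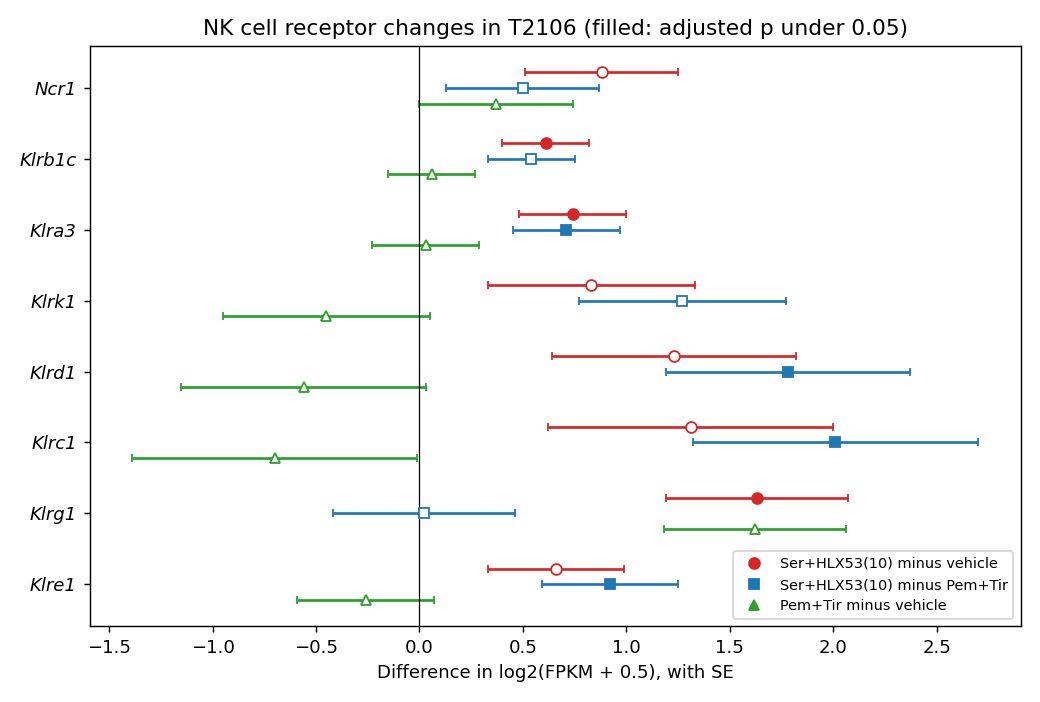
Differences in log2(FPKM + 0.5) with their SE (bars) for 8 receptor genes in 3 comparisons of T2106, named as in the plot of levels, with filled symbols where the adjusted p is under 0.05. Klrg1 lies at 1.63 and 1.62 for both combinations over vehicle and at 0.02 between them, while Klrc1 lies at 1.31, -0.70 and 2.01.

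Klrg1 was set beside the CD94/NKG2A chains. Between the same pairs Klrg1 averaged 8.62 ± 3.79 FPKM with serplulimab + HLX53 and 7.92 ± 0.613 FPKM with pembrolizumab + tiragolumab (SD, n = 3 each), a log2 difference of 0.02 ± 0.44 (limma adjusted p = 0.98). The ratio of Klrg1 to Klrc1 FPKM, looked at after the values were seen, was 0.478 to 0.564 with serplulimab + HLX53 at 10 mg/kg, 1.97 to 2.52 with pembrolizumab + tiragolumab and 0.277 to 0.514 in vehicle. The pembrolizumab + tiragolumab tumours were above both, and the other 2 groups overlapped. Serplulimab (0.645 to 1.51) and HLX53 (0.613 to 1.19) were also above vehicle, and the 5 mg/kg pair ran from 0.113 to 2.19. In T2215 the ratio was 0.289 to 1.13 with pembrolizumab + tiragolumab and 0.264 to 0.863 in vehicle, with overlap. In T2106 the ratio of Klrc1 to Klrd1 ran from 0.519 to 1.07 with pembrolizumab + tiragolumab and from 0.789 to 0.883 in vehicle, with overlap.

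**Figure D3:**
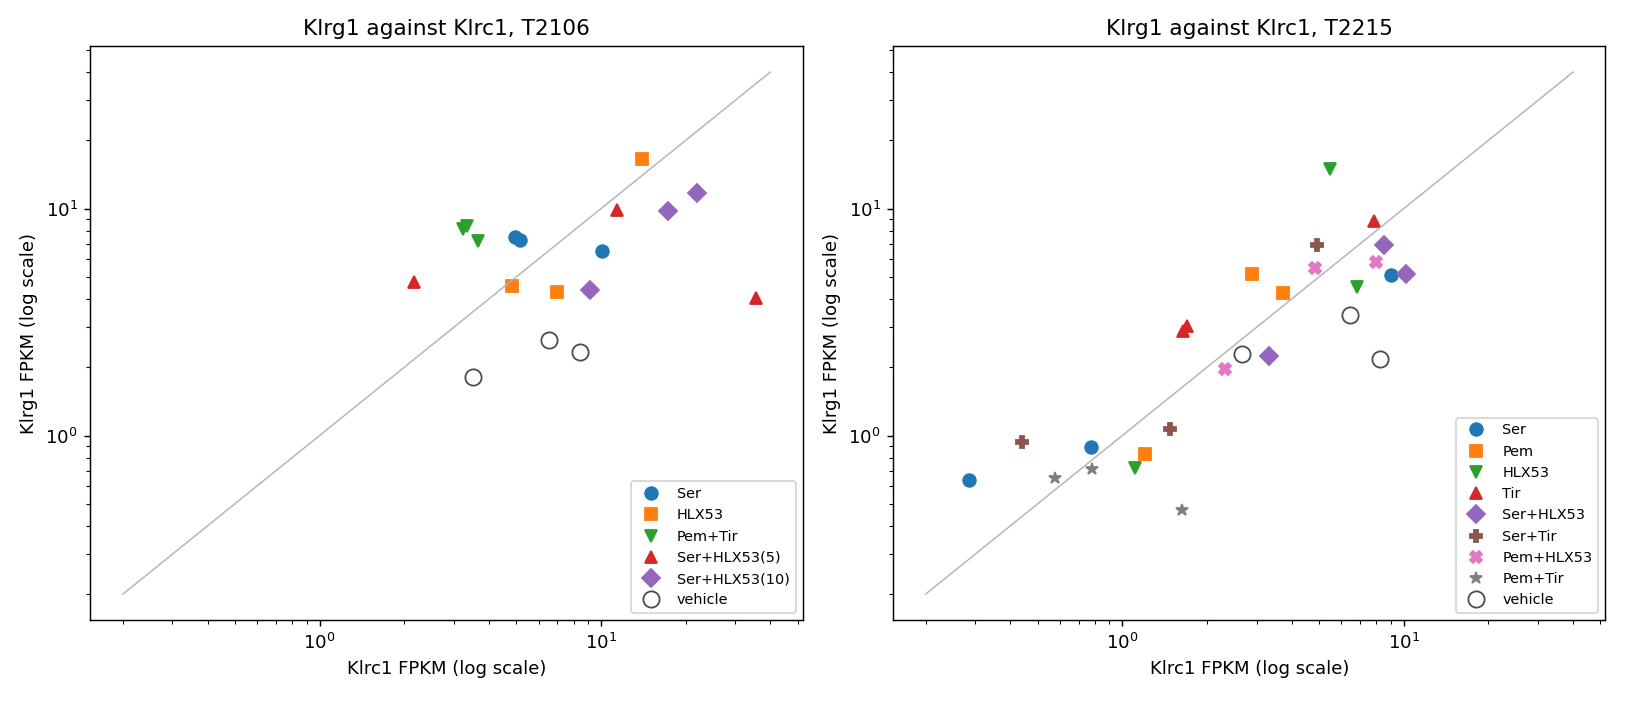
Klrg1 against Klrc1, FPKM on log axes, 1 symbol per tumour, T2106 left and T2215 right, with a line where the levels are equal. In T2106 the pembrolizumab + tiragolumab tumours lie above the line at 3.22 to 3.67 FPKM of Klrc1 and the vehicle tumours lie below it.

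These 4 calls depended on single tumours too: 0 were left without replicate 1 or 3 of serplulimab + HLX53 or without replicate 2 or 3 of pembrolizumab + tiragolumab, 1 without its replicate 1, and 5 without replicate 2 of serplulimab + HLX53. With no filter on low values 0 were left, at differences of the same size (2.01 for Klrc1, limma adjusted p = 0.11). Without the muscle-rich tumour of the 5 mg/kg group, Klrb1c and Klrk1 passed as well (limma adjusted p = 0.0176 and 0.026). All 12 T cell genes were higher in this comparison (median log2 difference 2.9; summed level 92.7 to 243 FPKM against 14.1 to 24), as were 10 of 10 adipocyte genes. With the T cell score or the adipocyte score as a covariate, 0 of 8 receptors were called. The 3 comparisons of serplulimab + HLX53 at 10 mg/kg with its parts or its lower dose gave 0 of 8 called in each, against 1.59% of genes over serplulimab, 26.8% over HLX53 and 0.139% over the 5 mg/kg dose. At an unadjusted p under 0.05 there were 0, 0 and 1 receptors, and 5408, 7301 and 1653 of 15070 genes (limma); the last was Klra3, which also had no overlap with the lower dose, as had 5.32% of genes.

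Signalling partners and ligands of the receptors were counted in these 2 comparisons, which share the combination tumours; the shares of all genes called higher, 23.4% over vehicle and 25.8% over pembrolizumab + tiragolumab, are the background to each count. With serplulimab + HLX53 at 10 mg/kg against vehicle, 6 of 11 adaptor and signalling genes rose (median 1.42 over the list, -0.04 over all genes). Tyrobp, the adaptor of several activating receptors, averaged 854 FPKM against 188 FPKM (2.15 ± 0.52, limma adjusted p = 0.012), and Hcst, the adaptor of NKG2D, 24.2 against 5.58 FPKM (2.04 ± 0.61, limma adjusted p = 0.0206). Both genes are also made by macrophages, whose list had 8 of 10 genes higher; its part in these values was not tested. Against pembrolizumab + tiragolumab, 10 of 11 were higher, Tyrobp by 2.22 ± 0.52 (limma adjusted p = 0.00914).

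Over vehicle, ligands changed in both directions, against 44.0% of all genes called in either. Of the 3 NKG2D ligands tested against vehicle, levels counted as Raet1d and Raet1e rose by 1.04 ± 0.32 and 1.02 ± 0.31 on the log2 scale. Their relatives Raet1a, Raet1b and Raet1c were not among the genes measured. Whether reads of these were counted as Raet1d or Raet1e was not tested. Ulbp1 fell by 1.20 ± 0.28, averaging 8.35 FPKM with the combination against 19.7 FPKM in vehicle (limma adjusted p = 0.0113). H2-T23, which encodes Qa-1b, the ligand of CD94/NKG2A, averaged 242 FPKM against 79.5 FPKM (1.59 ± 0.41, limma adjusted p = 0.0132). Of the Klrg1 ligands, E-cadherin (Cdh1) averaged 3.58 FPKM against 0.345 FPKM and rose (2.25 ± 0.40, limma adjusted p = 0.0073), while N-cadherin (Cdh2) averaged 8.67 FPKM against 23.6 FPKM and fell by 1.52 ± 0.49 (limma adjusted p = 0.0252). All 8 cell cycle genes fell in the same tumours (median -1.01; summed level 261 to 528 FPKM against 721 to 730 FPKM in vehicle), and the part of that list in the falls of Ulbp1 and Cdh2 was not tested. Cdh1 is an epithelial gene, and the keratinocyte markers, whose part was not tested, were higher in the same tumours. Of 9 effector genes 7 rose, with Ifng at 6.58 FPKM against 1.64 FPKM. Of 15 genes of NK identity and cytokine reception 7 rose and 1, Il18rap, fell by 0.83 ± 0.27. Among 9 other lectin-like receptors tested, 1 rose, Klra17 (1.3 ± 0.43, limma adjusted p = 0.0286), which is below the share of all genes. Over pembrolizumab + tiragolumab, 0 of the 3 NKG2D ligands were higher and 1, Ulbp1, was lower, and of the 6 other ligands 2 were higher (Cdh1 and H2-T23) and 1, Cdh2, was lower.

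In T2215 limma called 0 of 7 receptors in each of the 14 comparisons, in which 0.0% to 0.0134% of genes were called (0.00671% with pembrolizumab + HLX53 against vehicle). Over the 98 tests of receptors, 15 had an unadjusted p under 0.05, in 4 comparisons. Of these, 6 were in pembrolizumab + tiragolumab against vehicle, where 655 of 14914 genes had such a p. The others were 5 between serplulimab + HLX53 and pembrolizumab + tiragolumab (3180 genes), 3 between the HLX53 and tiragolumab groups (3964 genes) and 1 with serplulimab against vehicle (1842 genes). With pembrolizumab + tiragolumab against vehicle, all 7 receptors tested were lower without overlap, against 11% of genes. Klrk1 measured 1.98, 1.27 and 6.81 FPKM with the pair, against 22.3, 7.80 and 9.96 in vehicle (log2 change -1.98 ± 0.75, limma adjusted p = 1). Klrd1 measured 0.812, 0.948 and 3.34 FPKM, against 10.7, 4.82 and 8.72 (-2.08 ± 0.75, limma adjusted p = 1). The highest treated tumour was the same for both, replicate 3, which is also muscle-rich. Without the 3 muscle-rich tumours of T2215, the changes of Klrk1 and Klrd1 were -2.58 ± 0.73 and -2.57 ± 0.77 (limma adjusted p = 0.529 for both). Pembrolizumab alone had Klrk1 and Klre1 below vehicle without overlap, against 8.9% of genes.

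**Figure D4:**
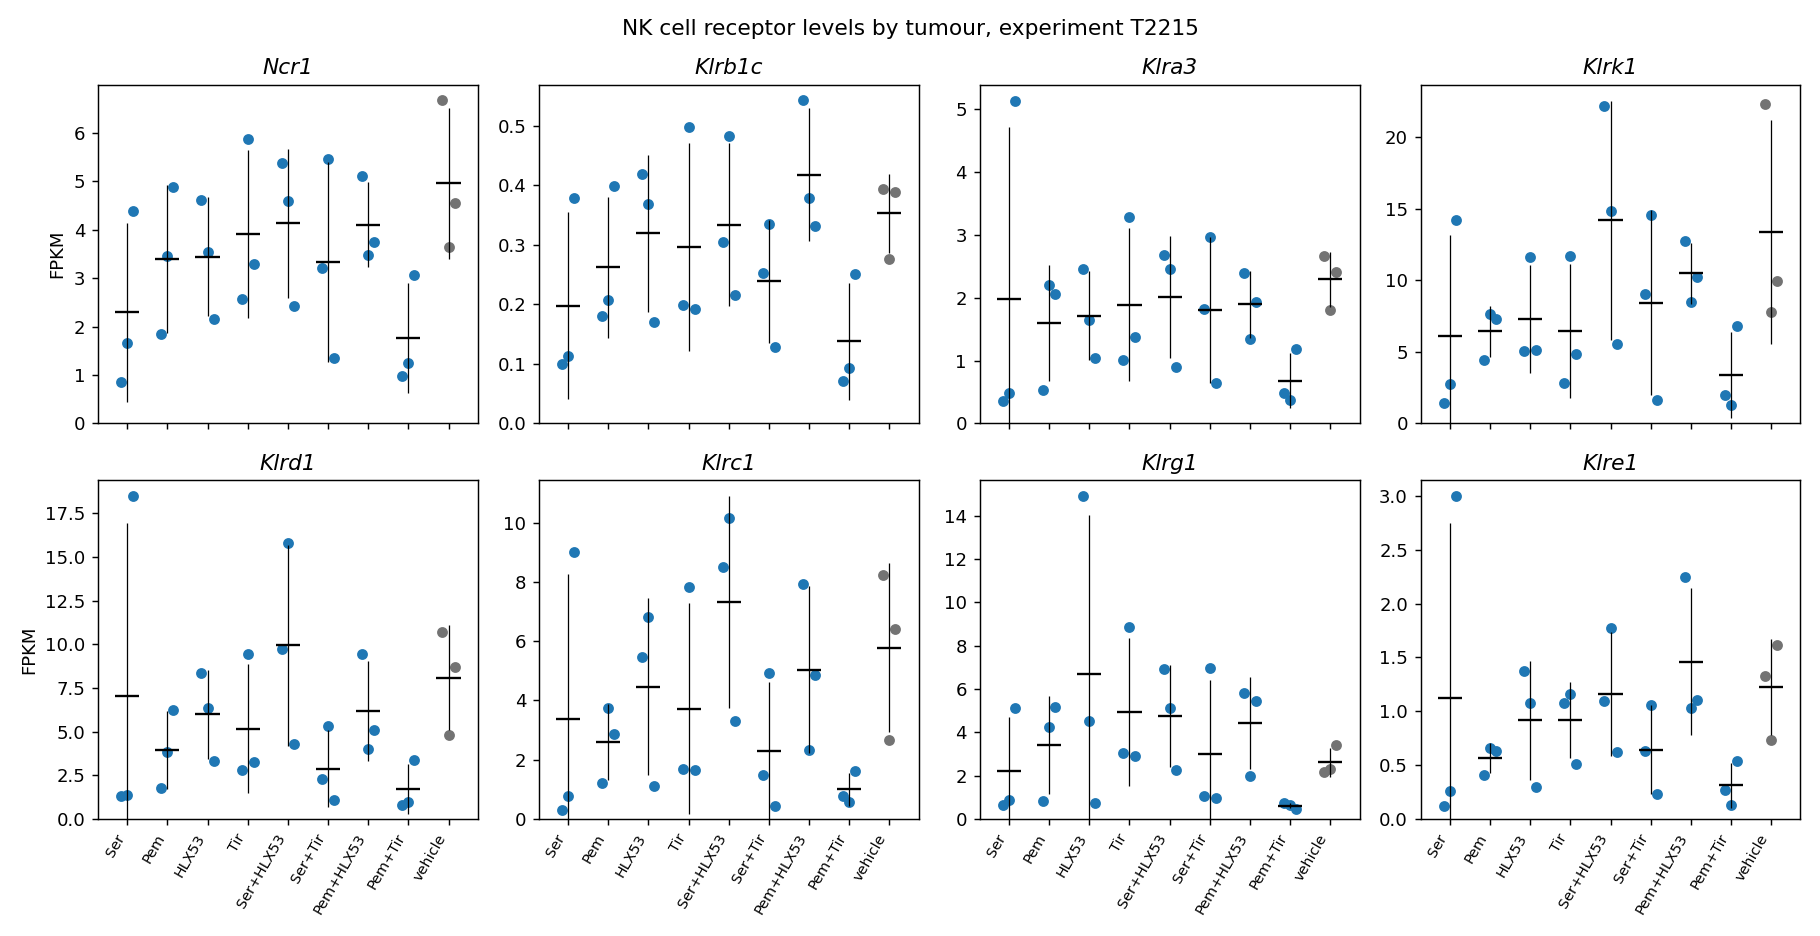
FPKM of the same 8 receptor genes by group in T2215, drawn as for T2106, with vehicle at the right. For all 8 genes the lowest group mean is that of pembrolizumab + tiragolumab, as for Klrg1 at 0.611 FPKM against 2.62 FPKM in vehicle.

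Klrg1 in that pair measured 0.711, 0.651 and 0.472 FPKM, against 2.17, 2.29 and 3.39 in vehicle (-1.47 ± 0.81, limma unadjusted p = 0.0822, adjusted p = 1). The 3 treated tumours were low together, and no other group of T2215 had all 3 below vehicle. Ncr1 measured 0.969, 1.24 and 3.07 FPKM with the pair, against 6.68, 3.64 and 4.56 in vehicle (-1.35 ± 0.48, limma adjusted p = 1). The T cell list moved the same way, with 0 of 12 genes called, a median of -1.65 and a summed level of 9.95 to 26.8 FPKM against 30.6 to 107 FPKM in vehicle. Its part in the values was not tested.

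Averaged over partners, the HLX53 groups had higher values than the tiragolumab groups for all 7 receptors, and none passed. Differences were 1.22 ± 0.43 for Klrd1, 1.27 ± 0.48 for Klrc1 and 0.99 ± 0.44 for Klrk1 (limma adjusted p = 0.155, 0.155 and 0.17). Serplulimab + HLX53 set against pembrolizumab + tiragolumab gave 1 ± 0.49 for Klre1 to 2.32 ± 0.83 for Klrc1 (limma adjusted p = 0.237 and 0.222). Klrc1 measured 8.49, 10.2 and 3.31 FPKM with the first pair, against 0.780, 0.578 and 1.63 with the second. Klrd1, Klrc1, Klrg1 and Klre1, 4 of 7 receptors, had groups without overlap, against 10.8% of genes. Spread within a group was wide: with serplulimab, Klrc1 measured 0.285, 0.773 and 9.03 FPKM and Klrd1 1.33, 1.36 and 18.5 FPKM, with replicate 3 high for both. The PD-1 class, the TIGIT class and their interaction had log2 values of -0.59 to 1.34 over the 7 receptors, and each had 0 at an unadjusted p under 0.05.

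The treatments given in both experiments were compared by the difference of their changes over vehicle, with an exact two-sided permutation of labels within each experiment (400 relabellings, 32 tests, smallest possible p 0.005). For Klrg1 with pembrolizumab + tiragolumab, the change was 1.62 in T2106 and -1.47 in T2215, and the difference of 3.09 gave an exact p of 0.005, adjusted 0.16. For that pair Ncr1 had 0.37 in T2106 and -1.35 in T2215 (exact p = 0.03), Klrb1c 0.06 and -0.43 (exact p = 0.025) and Klra3 0.03 and -1.30 (exact p = 0.05). With serplulimab all 8 receptors compared were positive in T2106 and negative in T2215: Klrg1 had 1.47 and -0.57 (exact p = 0.025), Ncr1 0.91 and -1.13 (exact p = 0.015) and Klrb1c 0.44 and -0.31 (exact p = 0.01). The opposite signs were therefore not particular to Klrg1. The adjusted exact p was 0.16 for each of these but Klra3, where it was 0.196. None of the 32 passed after adjustment. Opposite signs were also seen with HLX53 for all receptors but Klrg1, and with serplulimab + HLX53 at 10 mg/kg for Ncr1, Klrb1c, Klre1 and Klra3. Every one of the 32 differences, T2106 minus T2215, was positive. All treatments of an experiment were set against the same 3 vehicle tumours. Over T2215, Klrg1 lay above all vehicle tumours in 11 of 24 treated tumours and below them in 10.

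Receptor levels were set against a T cell score over tumours, in 30 relations that also include those with Ncr1. Klrc1 followed the score most closely, with r = 0.96 and rho = 0.946 over 18 tumours of T2106 and r = 0.924 and rho = 0.939 over 27 of T2215 (permutation p = 1e-05 for each, the smallest 100000 resamples can give; adjusted 1.76e-05 for r and 1.67e-05 for rho). Without the 2 tumours farthest from the median score, r was 0.925 and 0.915. Klrd1 had r of 0.941 and 0.902 (rho 0.905 and 0.913) and Klrk1 of 0.881 and 0.893 (rho 0.872 and 0.923), with the same permutation p; without the 2 farthest tumours r was 0.889 and 0.868 for Klrd1 and 0.821 and 0.906 for Klrk1. Ncr1 had r = 0.42 and rho = 0.527 in T2106 (permutation p = 0.0832 and 0.0266, adjusted 0.0861 and 0.0275) and r = 0.782 and rho = 0.789 in T2215 (permutation p = 1e-05 for both, adjusted 1.76e-05 and 1.67e-05); without the 2 farthest tumours r was 0.504 and 0.811. Klrg1 had r = 0.113 and rho = 0.09 in T2106 (permutation p = 0.655 and 0.724, adjusted the same) and r = 0.612 and rho = 0.65 in T2215 (permutation p = 0.00085 and 0.00035, adjusted 0.00116 and 0.000525); without the 2 farthest tumours r was 0.107 and 0.597. Within groups, taking deviations from group means, r for Klrc1 was 0.964 and 0.931, for Klrg1 0.239 and 0.613 (0.572 and 0.506 without the 2 farthest tumours, and rho 0.432 and 0.655), and for Ncr1 in T2106 0.591 (permutation adjusted p = 0.0115). The permutation for deviations moved values freely across groups and did not allow for the group means removed, so its p is likely too small. Tumours share library, tissue makeup and treatment in these relations.

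**Figure D5:**
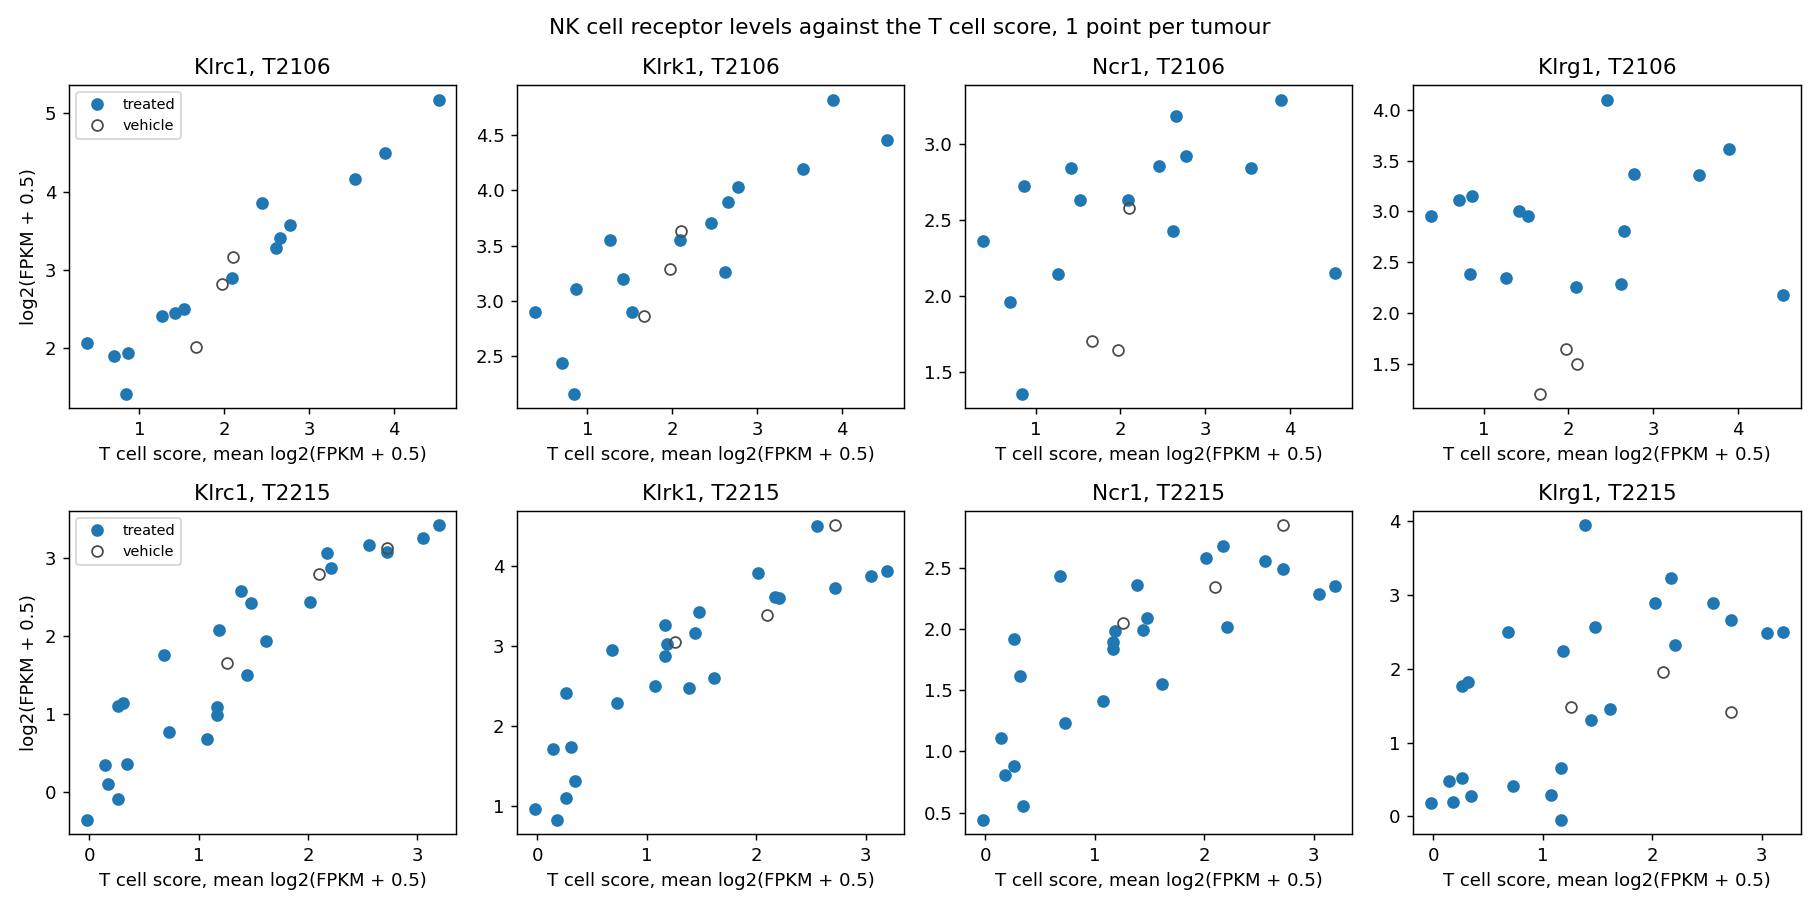
Levels of Klrc1, Klrk1, Ncr1 and Klrg1 as log2(FPKM + 0.5) against the T cell score, 1 point per tumour, T2106 above and T2215 below; filled points are treated tumours and open points vehicle. Klrc1 rises with the score in both experiments, with r of 0.96 and 0.924, and Klrg1 has r of 0.113 and 0.612.

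Against Ncr1, the receptor most restricted to NK and related innate cells, Klra3 had the highest r in both experiments, 0.837 in T2106 (rho 0.866; permutation p = 4e-05 and 3e-05, adjusted 6.32e-05 and 4.74e-05) and 0.923 in T2215 (rho 0.933; permutation p = 1e-05 for both, adjusted 1.76e-05 and 1.67e-05), and 0.817 and 0.911 without the 2 tumours farthest in Ncr1. Klrg1 had r of 0.63 in T2106 (rho 0.662; permutation p = 0.00477 and 0.00346, adjusted 0.00572 and 0.00432) and 0.786 in T2215 (rho 0.833; permutation p = 1e-05 for both), and 0.624 and 0.759 without those tumours. For deviations from group means, Klra3 did not have the highest r with Ncr1. In T2106 it had 0.762, below Klre1 at 0.795 and Klrk1 at 0.787, and in T2215 0.927, beside 0.928 for Klrd1. Among the receptors themselves, described without a test, Klrg1 had r of 0.246 to 0.26 with Klrk1, Klrd1 and Klrc1 in T2106 and 0.628 to 0.828 in T2215, while Klrd1 and Klrc1 had r = 0.951 in T2106.

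Genes with Gm or Rik names and antigen receptor or immunoglobulin segments were left out of the ranking that follows. Among the others, the genes whose pattern over the 27 tumours of T2215 was most like each receptor were named from r. Each is given with r over the 18 tumours of T2106. For Klrg1 they were Fcrl6 (0.966, and 0.873 in T2106), the granzyme gene Gzme (0.964 and 0.851) and Tmsb15a (0.961 and 0.833). For Klrc1 they were Nkg7 (0.972 and 0.967), Sh2d2a (0.97 and 0.951) and the kinase gene Zap70 (0.96 and 0.983). For Klrd1 they were Sla2 (0.96 and 0.904), Sh2d2a (0.958 and 0.914) and Zap70 (0.956 and 0.969). Klrk1 was closest to the Fc receptor gene Fcgr4 (0.967 and 0.954), Fam26f (0.967 and 0.887) and Gbp8 (0.959 and 0.871). Ncr1 was closest to Il2rb (0.956 and 0.786), which encodes a chain of the IL-2 and IL-15 receptors, Sh2d2a (0.936 and 0.595) and Il12rb1 (0.925 and 0.723). Klre1 was closest to Sh2d1a (0.926 and 0.94), Ctsw (0.924 and 0.801) and Cst7 (0.922 and 0.778). For Klra3 they were Nkg7 (0.941 and 0.638), Sh2d2a (0.935 and 0.649) and Ncr1 (0.923 and 0.837), so the likeness to Nkg7 and Sh2d2a was weaker in T2106.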

How the data were processed

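Total RNA of 45 tumours was sequenced as paired 150-base reads, per the labels' protocols. The authors deposited log2 FPKM for 47729 genes in 2 tables, taken here as normalised separately. Tools listed by the submitters' processing notes are STAR, Bowtie, Trimmomatic and FastQC, and builds are mm10, hg19 and GRCh37, with neither roles nor versions. What program computed FPKM is not given in those notes or the labels. Columns were matched to samples by their labels. The experiments were never fitted together. The log2 values were turned back to FPKM, and the tested scale was log2(FPKM + 0.5), which understates changes of low genes, in limma 3.58.1 (R 4.3.3; lmFit, contrasts.fit, eBayes with a trend) with all groups of a table in the fit and genes of 0.5 FPKM or more in at least 3 tumours. P-values measure only the spread between these tumours, which the labels do not expressly tie to separate mice, and were Benjamini-Hochberg adjusted over all genes tested in a comparison and were read at 0.05, in 23 comparisons. The fit was tested on simulated data. Permutation tests used Python 3.11.15 and scipy 1.17.1. Named genes were all 9 receptors, up to 4 called genes with the smallest p in each of 16 other lists, and the 3 genes most like each receptor; Hcst, Klra2, Klra4 and Klra6 were named after their values were seen. Receptors and lists were chosen with earlier results of these data known. Alternatives covered the pseudocount, the filter, centring, the replicate block, covariates and single tumours. Klrh1, Raet1a, Raet1b, Raet1c and H60a were not analysed here.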

Additional observations from a re-analysis of the deposited data

Results flagged for a closer look

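Klrg1 is listed because, with pembrolizumab + tiragolumab, every treated tumour was above every vehicle tumour in T2106 and below every vehicle tumour in T2215. Opposite signs alone were also seen for Ncr1, Klrb1c and Klra3 with this pair and for all 8 receptors with serplulimab, with overlapping groups in at least 1 experiment. The log2 change was 1.62 in T2106 and -1.47 in T2215, a difference of 3.09 (exact two-sided permutation p = 0.005, the smallest the design allows, adjusted 0.16 over 32 tests), so it did not pass after adjustment. The tumours measured 8.40, 7.23 and 8.12 FPKM with the pair, against 2.63, 1.81 and 2.34 FPKM in vehicle, in T2106. In T2215 they measured 0.711, 0.651 and 0.472 FPKM with the pair, against 2.17, 2.29 and 3.39 FPKM in vehicle. The experiments come from separate tables, taken here as normalised separately.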

How the results depend on the processing

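Serplulimab + HLX53 at 10 mg/kg against vehicle in T2106 had 3 receptors called. There were 0 with no filter, with the adipocyte score and with the T cell score as a covariate, and 5 with only the compared tumours in the fit and, chosen after seeing the data, 5 without the muscle-rich tumour. Klrg1 kept a change of 1.63 with no filter, 1.88 with the adipocyte covariate and 1.41 with the T cell covariate (limma adjusted p = 0.0511, 0.42 and 0.0751). Against pembrolizumab + tiragolumab the 4 calls came to 0 with no filter and with either covariate, to 6 with only the compared tumours or without the muscle-rich one (Klrb1c and Klrk1 added), and to 5 with a pseudocount of 1 or no trend (Klrb1c added). With the adipocyte covariate the difference of Klrc1 turned to -0.45, and with the T cell covariate those of Klrd1, Klrc1 and Klre1 turned to -0.47, -0.69 and -0.21; the cause was not tested. Pembrolizumab + tiragolumab against vehicle had 0 calls and 1, Klrg1, with the T cell covariate (1.82, limma adjusted p = 0.0225). The 10 mg/kg against the 5 mg/kg dose had 0 calls and 2 without the muscle-rich tumour. Leaving out single tumours of the groups compared gave 0 to 3 calls for the 10 mg/kg combination over vehicle, 0 to 5 over pembrolizumab + tiragolumab, 0 to 2 over the 5 mg/kg dose and 0 to 2 for the 5 mg/kg dose over vehicle, and 0 to 0 in the other 19 comparisons. With the replicate block there were 3 calls in each of the first 2 comparisons, but same-numbered tumours of different groups did not deviate together (median r -0.026 in T2106 and -0.039 in T2215; 7 of 18 and 10 of 27 tumours were closest to their own number). Read depth is unknown, so counting error could not be set beside low genes such as Klrb1c and Klre1.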
